A study of Mus musculus with 6 samples.

Results

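The genes described here are 10 members of the interleukin 6 (IL6) receptor and STAT3 pathway in mouse liver, picked by name from a table of 25904 genes. They comprise the receptor chains Il6ra, Il6st and Lifr, the kinases Jak1 and Jak2, the transcription factor Stat3, the feedback inhibitor Socs3, and Bcl3, Pim3 and Junb, which STAT3 signalling is known to induce. Each name matched 1 row, and all 10 had enough reads to be tested. Liver samples of Ptprd+/- mice (n = 3) were compared with liver samples of Ptprd+/+ mice (n = 3), all of the C57BL/6J strain. Ptprd+/- mice are heterozygous for Ptprd, the gene of receptor-type protein tyrosine phosphatase delta, and Ptprd+/+ mice are wild type. The labels name no treatment, and the sources used here give neither the altered allele nor the age, sex or feeding of the mice or the hour of sampling.

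IL6 binds its receptor chain IL6RA, and the pair joins the shared signalling chain gp130, the product of Il6st. Janus kinases (JAKs) bound to gp130 then phosphorylate STAT3 on a tyrosine, and STAT3 dimers enter the nucleus and bind DNA. In hepatocytes this pathway drives the acute phase response, in which the liver secretes proteins such as serum amyloid A and fibrinogen. SOCS3 is made in response and blocks gp130 and the JAKs, and tyrosine phosphatases remove the activating phosphate. STAT3 is a reported substrate of the phosphatase encoded by Ptprd, which is why transcripts around STAT3 are compared here. The libraries measured messenger RNA, and phosphorylation of STAT3 was not measured.

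Promoter sequences of the 2 members with an unadjusted edgeR p under 0.05 between genotypes, Socs3 and Junb, are shown first. RefSeq (GRCm38.p6, the mm10 build) supplied 300 bases for each, from 250 before to 50 after the annotated start, written 5′ to 3′ on the gene's strand. The Socs3 window lies at chr11:117969317-117969616 and the Junb window at chr8:84978699-84978998, both on the minus strand. The annotation used for the counts places Socs3 at chr11:117966079-117970047 and Junb at chr8:84974484-84978718, so the starts differ between annotations. By that annotation the Socs3 window lies wholly inside the gene. Capitals mark the palindromic STAT motif TTCNNNGAA, the CCAAT box and the TATA box TATAAA, searched on both strands.
Socs3: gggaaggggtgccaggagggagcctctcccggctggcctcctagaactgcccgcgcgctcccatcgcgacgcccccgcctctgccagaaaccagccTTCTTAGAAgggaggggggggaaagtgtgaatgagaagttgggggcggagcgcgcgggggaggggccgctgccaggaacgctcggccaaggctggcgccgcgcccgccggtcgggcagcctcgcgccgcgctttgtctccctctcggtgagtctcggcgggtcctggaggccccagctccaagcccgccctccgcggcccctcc
Junb: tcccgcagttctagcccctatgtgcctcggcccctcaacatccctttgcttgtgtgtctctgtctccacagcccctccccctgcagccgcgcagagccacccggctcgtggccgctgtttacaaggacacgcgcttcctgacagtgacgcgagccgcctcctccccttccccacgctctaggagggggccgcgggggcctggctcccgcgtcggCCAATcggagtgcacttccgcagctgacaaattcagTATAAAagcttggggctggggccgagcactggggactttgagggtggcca

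The Socs3 window held 1 match to TTCNNNGAA, at bases 97 to 105 counted from its 5′ end. That was the only match among the 11 windows of the 10 genes, of which Lifr has 2. Of all 32851 promoter windows 8.3% held this motif, so 1 match in 11 is near that share. Only this exact pattern was searched for, so other STAT-binding sequences would be missed, in the Junb window too. The Junb window held CCAAT at bases 215 to 219 and TATAAA at bases 251 to 256. That TATAAA begins at the RefSeq start itself. By the annotation used for the counts it lies before the start of Junb. The motif TATAAA was found in no other member's window and in 13.6% of all windows. CCAAT was found in 6 of the 11 windows and in 37.4% of all. The GC box GGGCGG, not capitalized above, was found in 8 of the 11 windows and in 35.7% of all. The Socs3 window held it and the Junb window did not. The cyclic AMP response element TGACGTCA was found in the window of Jak1 alone among the members, and in 1.79% of all windows. The E-box CACGTG, a motif bound by clock factors, was found among the members in the Il6ra window alone, and in 7.15% of all windows. The AP-1 motif TGANTCA was found in 0 of the 11 windows, against 7.81% of all windows.

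Library totals ranged from 38918379 to 72954187 counts in Ptprd+/- livers and from 37924266 to 48526395 in Ptprd+/+ livers, and the deepest was Ptprd+/- 3. Levels are given in CPM, read counts scaled to a common library size and composition. Ptprd, the check of the labels, had 54.1, 78.1 and 63.4 CPM in Ptprd+/- livers, against a mean of 129 ± 2.49 CPM in Ptprd+/+ livers (SD, n = 3). The groups did not overlap for Ptprd, so each library matched its genotype label. The labelled tissue carried hepatocyte transcripts, with Alb, the albumin gene, at 118412 to 144174 CPM in Ptprd+/- and 100040 to 117403 CPM in Ptprd+/+ livers. Dbp, a clock output gene, split the Ptprd+/- libraries, with 13.5, 129 and 122 CPM there and 14.4 to 29.6 CPM in Ptprd+/+ livers. The summed level of 14 clock genes, Dbp among them, was 371, 861 and 821 CPM in Ptprd+/- livers, against 474 to 549 CPM in Ptprd+/+ livers. Of the 14, 9 log2 fold changes, Ptprd+/- over Ptprd+/+, were positive and 5 negative, and 0 passed an adjusted threshold by edgeR or DESeq2. Whole liver was used, so fewer cells of a type and less RNA per cell cannot be told apart.

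To compare genes with each other, CPM was divided by the length of each gene's exons, and over the 6 libraries the pathway genes spanned a 10.1-fold range of mean level. Lifr was highest at 33.5 ± 9.04 CPM per kb (SD, n = 6), followed by Pim3 at 20.0 ± 5.18, Il6st at 16.5 ± 1.37, Jak1 at 15.4 ± 1.02 and Stat3 at 12.0 ± 1.14 CPM per kb. Il6ra at 7.63 ± 1.55, Bcl3 at 7.30 ± 2.06 and Junb at 5.64 ± 1.96 CPM per kb came next. Socs3 at 3.63 ± 2.37 and Jak2 at 3.32 ± 0.402 CPM per kb were lowest. Between neighbours in this order the library values overlapped in 7 of 9 pairs. The exceptions were Jak1 above Stat3 and Stat3 above Il6ra, each higher in 6 of 6 libraries with no overlap. Il6st exceeded Jak1 in 6 of 6 libraries too, by a ratio of means of 1.075, although their ranges overlapped. The shared chain gp130 thus had more transcript per exon length than the IL6-specific chain, at 13.9 to 17.5 CPM per kb for Il6st against 5.24 to 9.73 CPM per kb for Il6ra.

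**Figure D1:**
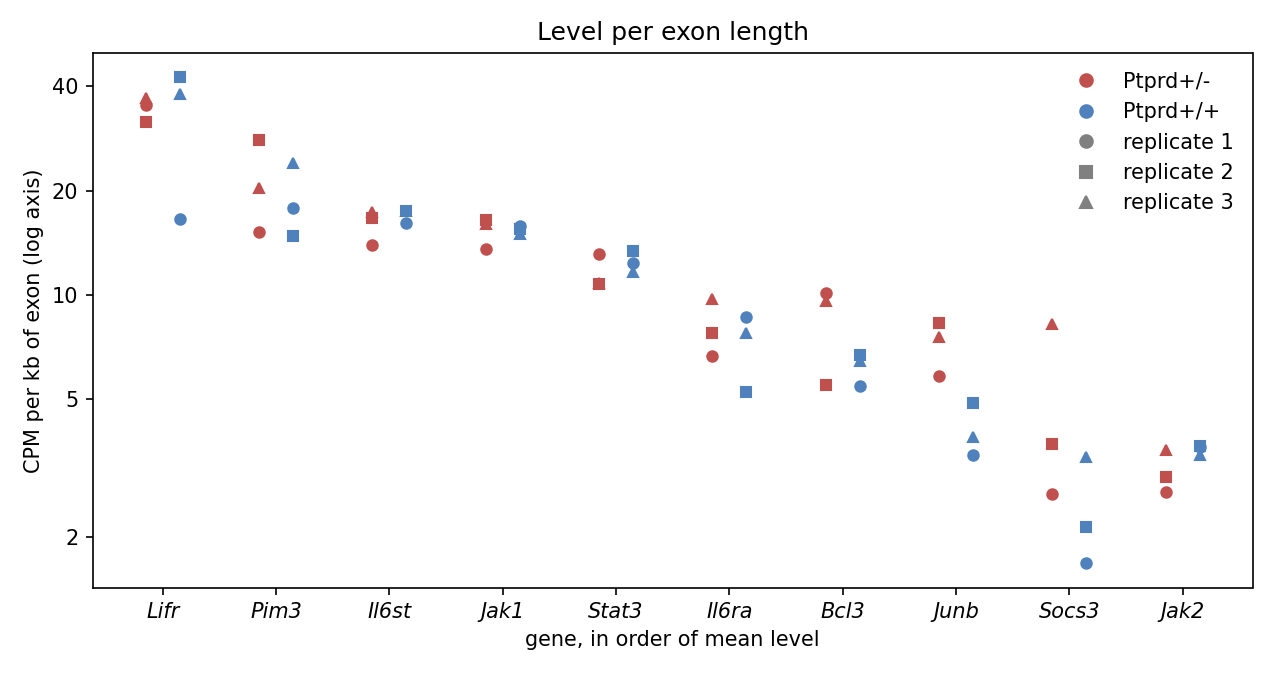
Level of each pathway gene in CPM per kb of exon (log axis), in order of the mean over 6 libraries, with Ptprd+/- libraries on the left and Ptprd+/+ libraries on the right of each gene and 1 symbol shape per replicate number. Lifr is highest except in Ptprd+/+ 1, where it stands at 16.6 CPM per kb, and the Socs3 values spread from 1.68 to 8.23 CPM per kb.

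The receptor chains showed no difference between genotypes beyond the spread of the libraries. Il6ra, the chain that binds IL6, had 57.6, 67.2 and 84.1 CPM in Ptprd+/- livers, against 74.3, 45.3 and 66.8 CPM in Ptprd+/+ livers. The genotypes overlapped for Il6ra, and both the lowest and the second highest value belonged to Ptprd+/+ livers. Its log2 fold change, Ptprd+/- over Ptprd+/+, was 0.17 (standard error (SE) 0.20, 95% interval -0.30 to 0.63). Il6st had 155, 186 and 193 CPM in Ptprd+/- livers, against 179, 194 and 193 CPM in Ptprd+/+ livers. Only Ptprd+/- 1 lay outside the Ptprd+/+ range for Il6st, and the log2 fold change was -0.09 (SE 0.11, 95% interval -0.35 to 0.17).

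Lifr encodes the chain that pairs with gp130 for leukemia inhibitory factor and related cytokines. It had 381, 340 and 398 CPM in Ptprd+/- livers, against 178, 458 and 411 CPM in Ptprd+/+ livers. One wild-type library, Ptprd+/+ 1, stood far below the other 5, which lay within 340 to 458 CPM. The coefficient of variation of Lifr was 8.04% in Ptprd+/- and 42.9% in Ptprd+/+ livers, where 96.9% of 11988 genes with a mean of at least 1 CPM varied less. The log2 fold change was 0.10 (SE 0.30) with all libraries and -0.22 without Ptprd+/+ 1, so its sign rested on that library. Egfr, a growth factor receptor gene that can also lead to STAT3 activation, had 452, 344 and 218 CPM in Ptprd+/- livers, against 122, 470 and 568 CPM in Ptprd+/+ livers. It was picked with its values in view, and Ptprd+/+ 1 was its lowest library as well.

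The kinase genes overlapped between genotypes. Jak1 had 97.8, 119 and 115 CPM in Ptprd+/- livers, against 114, 112 and 108 CPM in Ptprd+/+ livers. With a log2 fold change of -0.01 (SE 0.10), its 95% interval in fold terms ran from 0.841 to 1.17. Jak1 lies on chromosome 4, as Ptprd does, at chr4:101152367-101265282 (mm10). Jak2 had 13.5, 14.9 and 17.9 CPM in Ptprd+/- livers, against 18.3, 18.4 and 17.4 CPM in Ptprd+/+ livers. Ptprd+/- 1 and Ptprd+/- 2 lay below all Ptprd+/+ libraries for Jak2, and Ptprd+/- 3 lay among them. Its log2 fold change of -0.22 (SE 0.12, unadjusted p 0.112 by edgeR's quasi-likelihood test) was negative under all 14 alternative settings, and the interval of -0.51 to 0.06 includes 0.

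Stat3 (chr11:100885098-100939540, mm10), the transcription factor at the centre of the pathway, had 125, 102 and 103 CPM in Ptprd+/- livers. It had 118, 128 and 111 CPM in Ptprd+/+ livers. Ptprd+/- 2 and Ptprd+/- 3 were the lowest of the 6 libraries, while Ptprd+/- 1 lay within the Ptprd+/+ range. Means were 110 ± 12.7 CPM in Ptprd+/- and 119 ± 8.56 CPM in Ptprd+/+ livers (SD, n = 3). The log2 fold change was -0.11 (SE 0.12), with an adjusted p of 0.839 by edgeR. The 95% interval of the fold ran from 0.771 to 1.11, so differences beyond that range lay outside the interval. The exact permutation test over libraries gave p = 0.3 (two-sided), where 3 against 3 libraries cannot go below 0.1.

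**Figure D2:**
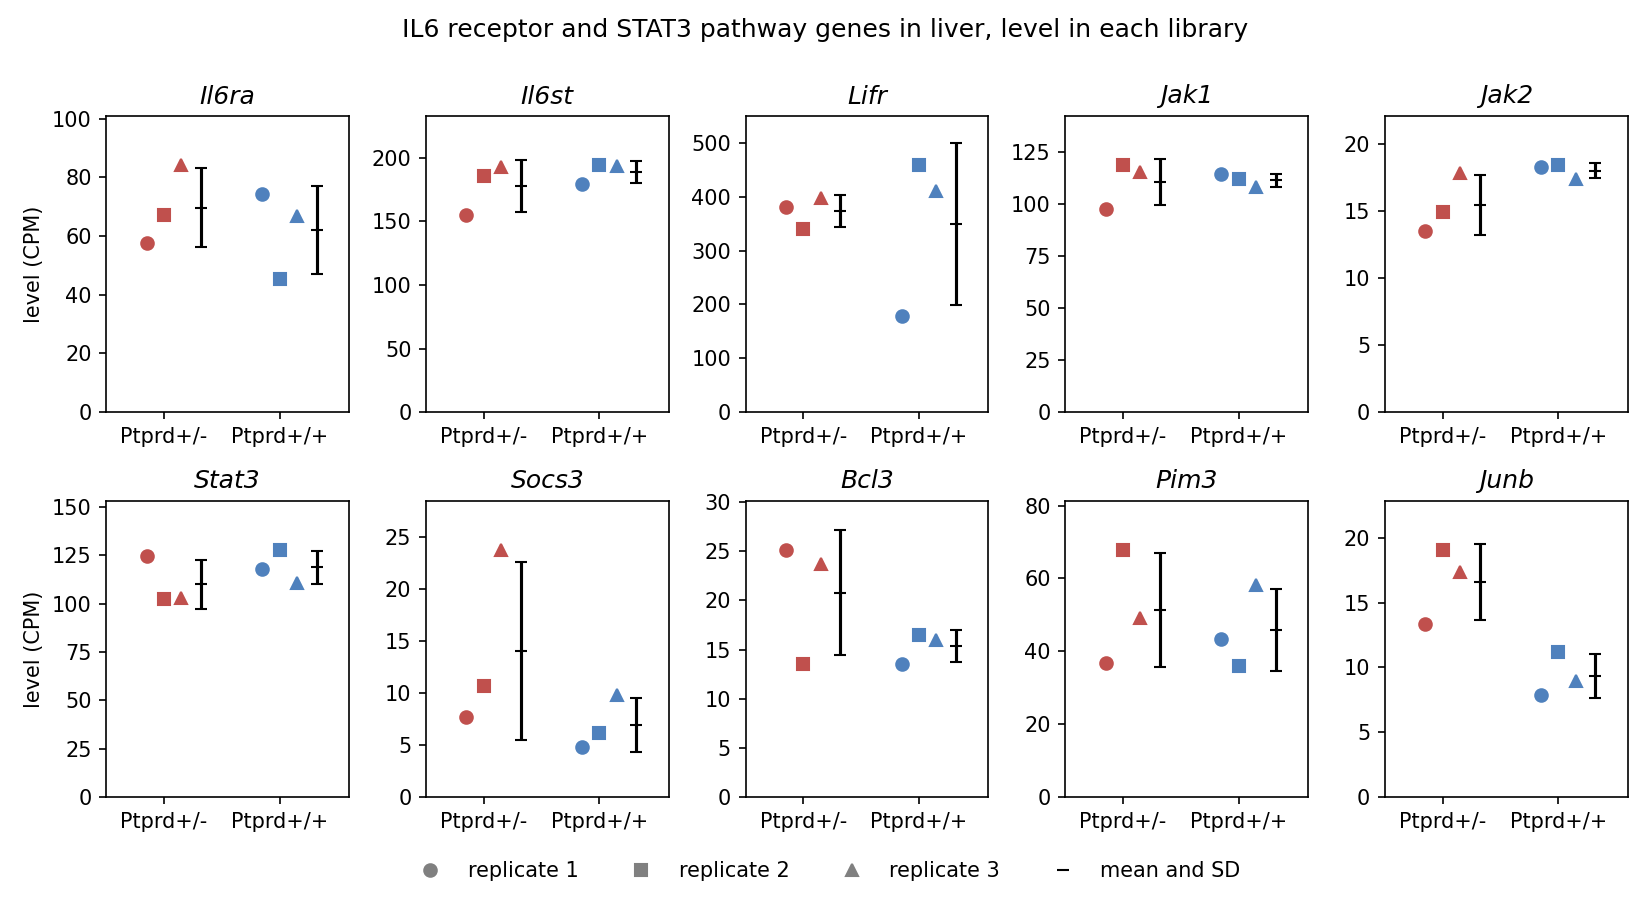
Level in CPM of each of the 10 genes in every library, with Ptprd+/- (red) left of Ptprd+/+ (blue), 1 symbol shape per replicate number, and the mean with its SD in black; each axis starts at 0. In the Junb panel alone the genotypes do not overlap, Socs3 is highest in Ptprd+/- 3 at 23.8 CPM, and Lifr is lowest in Ptprd+/+ 1 at 178 CPM.

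Junb and Socs3 were the members that differed most. Junb encodes a subunit of the AP-1 transcription factor and is induced within the first hour of many stimuli, IL6 among them. It had 13.4, 19.1 and 17.4 CPM in Ptprd+/- livers, against 7.90, 11.2 and 8.94 CPM in Ptprd+/+ livers. All Ptprd+/- libraries lay above all Ptprd+/+ libraries, with 13.4 CPM as the lowest Ptprd+/- and 11.2 CPM as the highest Ptprd+/+ value. Junb was 1.78-fold higher in Ptprd+/- livers (log2 fold change 0.83, SE 0.18, 95% interval 0.42 to 1.24). With edgeR the unadjusted p was 0.00153, the 40th smallest of 14606 genes, and the adjusted p was 0.531. DESeq2 gave an adjusted p of 0.0119, limma-voom 0.519, and edgeR without a filter on low counts 0.0197, so the call depended on the test and the filter. The exact permutation p was 0.1, the smallest possible. The log2 fold change stayed between 0.72 and 0.99 with any 1 library left out, and was 0.52 without Ptprd+/- 2 and Ptprd+/- 3, the libraries with high Dbp.

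Socs3, the feedback inhibitor, had 7.68, 10.7 and 23.8 CPM in Ptprd+/- livers, against 4.84, 6.17 and 9.82 CPM in Ptprd+/+ livers. The genotypes overlapped, since Ptprd+/- 1 lay below Ptprd+/+ 3, and Ptprd+/- 3 stood more than 2-fold above every other library. The highest and the lowest library differed 4.91-fold, the widest span of the 10 genes. In Ptprd+/- livers the coefficient of variation was 60.9%, above that of 98.9% of genes. The log2 fold change was 1.03 (SE 0.42, unadjusted p 0.0406 and adjusted p 0.694 by edgeR), and it was 0.41 without Ptprd+/- 3 and 0.15 without Ptprd+/- 2 and Ptprd+/- 3. DESeq2 gave an unadjusted p of 0.0707 and an adjusted p of 0.728. The exact permutation p was 0.2.

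Bcl3, which encodes a nuclear IκB-family partner of NF-kB, had 25.1, 13.6 and 23.7 CPM in Ptprd+/- livers, against 13.5, 16.5 and 16.0 CPM in Ptprd+/+ livers. Ptprd+/- 1 and Ptprd+/- 3 exceeded every Ptprd+/+ library for Bcl3, and Ptprd+/- 2 lay at the bottom of the Ptprd+/+ range. Its log2 fold change was 0.44 (SE 0.22, unadjusted p 0.0802 by edgeR). Pim3, a serine/threonine kinase gene of the PIM survival family, had 36.8, 67.8 and 49.3 CPM in Ptprd+/- livers, against 43.3, 36.0 and 58.3 CPM in Ptprd+/+ livers. Pim3 was highest in the library where Bcl3 was low, Ptprd+/- 2, and its log2 fold change of 0.16 (SE 0.24) turned to -0.09 without that library. Thus the 4 induced genes did not share 1 order of libraries, with Bcl3 highest in Ptprd+/- 1, Pim3 and Junb in Ptprd+/- 2 and Socs3 in Ptprd+/- 3.

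**Figure D3:**
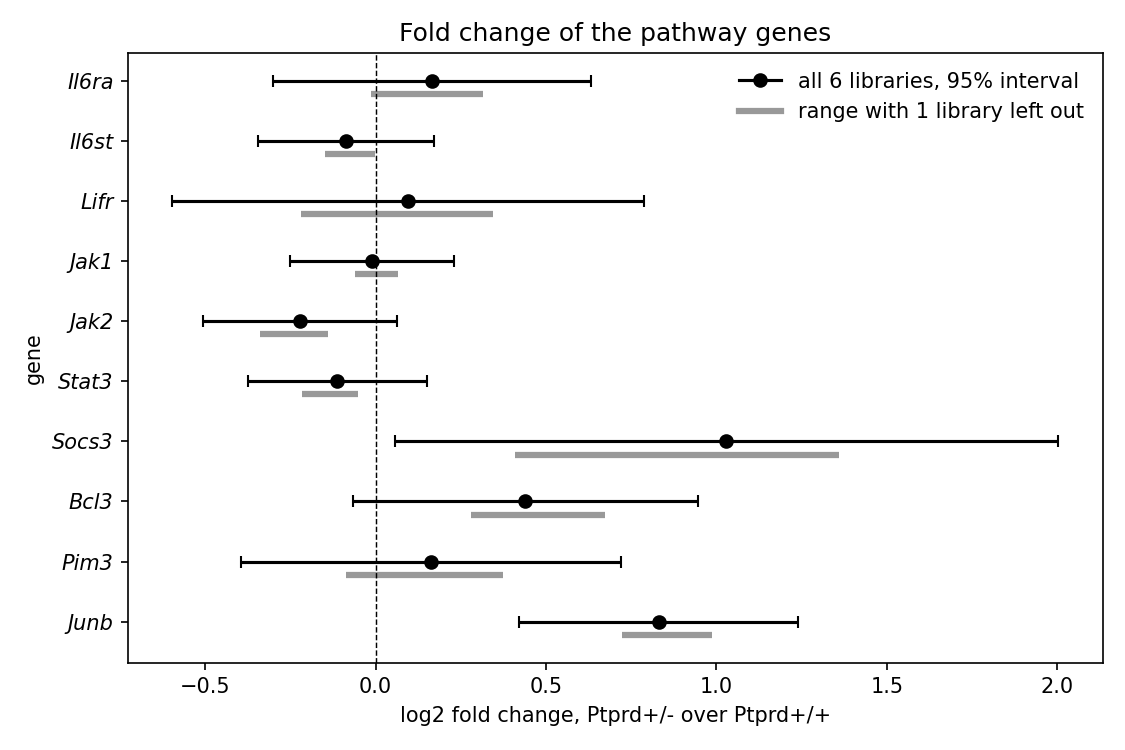
Log2 fold change of each gene, Ptprd+/- over Ptprd+/+, with its 95% interval (black, edgeR, 3 libraries per genotype) and the range when any 1 library is left out (grey); the dashed line marks no difference. The intervals of Junb (0.42 to 1.24) and Socs3 (0.06 to 2.00) lie above 0 before adjustment for the number of genes, and the other 8 include 0.

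Over the 10 genes edgeR called 0 at an adjusted p of 0.05, as it called 0% of the 14606 genes tested. At an unadjusted edgeR p under 0.05, 2 members were higher in Ptprd+/- livers and 0 lower. Of all genes 3.39% were higher and 3.77% lower. DESeq2 called 1 member, Junb, and 0.452% of all genes. Limma-voom called 0 members and 0% of all genes. In 1 member the genotypes did not overlap, with Ptprd+/- higher, and 7.15% of all genes had that pattern, while 6.72% did not overlap with Ptprd+/- lower. The median log2 fold change was 0.13 over the members, of which 6 were positive, and 0.00 over all genes. A share of 1 in 10 without overlap is close to the background, and the members' median level moved as much between libraries of 1 genotype. Centred on each gene's mean, that level was -0.17, 0.04 and 0.15 (log2) in Ptprd+/- livers, against -0.08, -0.04 and 0.06 in Ptprd+/+ livers.

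Other genes of the pathway came from lists chosen with earlier results of these data known. Of 11 listed cytokines that signal through gp130 or its partners, 9 had a row and 2 had enough reads to be tested. These were Ctf1, the cardiotrophin 1 gene, at 5.72 ± 0.663 CPM in Ptprd+/- and 5.86 ± 0.671 CPM in Ptprd+/+ livers, and Clcf1 at 1.16 ± 0.175 and 1.33 ± 0.190 CPM (SD, n = 3). Il6 itself had 1, 0 and 3 reads in Ptprd+/- livers and 1, 5 and 1 reads in Ptprd+/+ livers. Oncostatin M (Osm) had 0, 1 and 5 reads in Ptprd+/- livers and 0, 2 and 1 reads in Ptprd+/+ livers. A difference in these ligand transcripts was not detectable at this depth.

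Among 14 tested receptor chains of related cytokine and growth factor systems, 4 had positive and 10 negative log2 fold changes, and 0 passed edgeR's or DESeq2's adjusted threshold. Cntfr, the ciliary neurotrophic factor receptor gene, had 2.25, 2.73 and 2.63 CPM in Ptprd+/- livers, against 1.98, 1.80 and 1.85 CPM in Ptprd+/+ livers, without overlap (log2 fold change 0.44, SE 0.18, edgeR unadjusted p 0.0413 and adjusted p 0.694). Lepr, the leptin receptor gene, averaged 6.10 ± 2.46 CPM in Ptprd+/- and 9.88 ± 4.29 CPM in Ptprd+/+ livers, and Osmr, the oncostatin M receptor gene, 3.34 ± 0.413 and 4.45 ± 1.32 CPM (SD, n = 3).

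Relatives of the kinases and of STAT3 numbered 8, all tested, with 0 passing an adjusted threshold. Stat4, a STAT of lymphoid cells, had 0.137, 0.128 and 0.174 CPM in Ptprd+/- livers, against 0.304, 0.274 and 0.375 CPM in Ptprd+/+ livers. These levels were near the lower limit of what was tested, and the log2 fold change of -1.06 (SE 0.35) had an edgeR unadjusted p of 0.0165 and an adjusted p of 0.685. The summed level of 7 lymphocyte marker genes was 3.58 to 6.94 CPM in Ptprd+/- and 4.82 to 7.35 CPM in Ptprd+/+ livers, and their part in the Stat4 difference was not tested. Stat2 averaged 90.0 ± 14.4 CPM in Ptprd+/- and 76.7 ± 2.42 CPM in Ptprd+/+ livers, and Stat6 70.9 ± 7.25 and 62.1 ± 2.31 CPM (SD, n = 3). Both overlapped between genotypes.

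Inhibitors, phosphatases and adaptors that act on JAK and STAT proteins numbered 20, of which 10 had positive and 10 negative log2 fold changes and 0 passed an adjusted threshold. Socs4 had 11.3, 13.5 and 15.5 CPM in Ptprd+/- livers, against 15.6, 19.4 and 17.8 CPM in Ptprd+/+ livers. It was 1.31-fold lower, in the opposite direction to Socs3 (log2 fold change -0.39, SE 0.15, edgeR unadjusted p 0.0289 and adjusted p 0.685), without overlap. Pias4 and Pias1, genes of proteins that bind and inhibit STATs, also did not overlap, with log2 fold changes of 0.22 and -0.17 (edgeR unadjusted p 0.0704 and 0.108). Of the 20 genes, 1 was thus higher without overlap and 2 lower, where 7.15% of all genes were higher and 6.72% lower. These shares are too close to the background to be read as a result about the inhibitors. Ptpn1, Ptpn2, Ptpn6 and Ptpn11, genes of phosphatases that act on this pathway, picked with their values in view, had log2 fold changes of 0.00, -0.08, 0.07 and 0.00.

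Genes of transcription factors, survival proteins and other products described as STAT3-induced, apart from the acute phase list, numbered 23 after filtering, with 13 positive and 10 negative log2 fold changes and 0 past an adjusted threshold. Birc5, the survivin gene of dividing cells, had 1.59, 1.72 and 2.17 CPM in Ptprd+/- livers, against 1.22, 1.29 and 0.803 CPM in Ptprd+/+ livers (log2 fold change 0.73, SE 0.26, edgeR unadjusted p 0.0212). Pim2, a relative of Pim3, averaged 2.31 ± 0.376 CPM in Ptprd+/- and 1.77 ± 0.0285 CPM in Ptprd+/+ livers. Both were higher in Ptprd+/- livers without overlap, at low levels. They were the 2 of the 23 with that pattern, which 7.15% of all genes had. Il4ra, the interleukin 4 receptor gene, averaged 42.7 ± 6.34 and 37.1 ± 1.77 CPM (SD, n = 3) and overlapped.

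Values of 4 other cytokine-response genes, all picked with their values in view, are given for the same libraries. Cish, a SOCS-family gene induced by STAT5, had 36.9, 10.9 and 72.1 CPM in Ptprd+/- livers, against 11.8, 7.09 and 79.1 CPM in Ptprd+/+ livers. Socs2, another STAT5-induced inhibitor, had 35.9, 8.86 and 25.8 CPM in Ptprd+/- livers, against 7.42, 18.5 and 92.5 CPM in Ptprd+/+ livers. Socs2 was highest in Ptprd+/+ 3 and, among the Ptprd+/- libraries, in Ptprd+/- 1. Myc had 7.32, 5.58 and 20.2 CPM in Ptprd+/- livers, against 3.69, 3.58 and 35.6 CPM in Ptprd+/+ livers. Gadd45g, a growth arrest gene, had 20.3, 12.9 and 39.4 CPM in Ptprd+/- livers, against 5.64, 5.39 and 52.3 CPM in Ptprd+/+ livers. Ptprd+/- 3 and Ptprd+/+ 3 were thus the top libraries for Cish, Myc and Gadd45g, and within each genotype Socs3 was highest in the same library. Their part in the Socs3 difference was not tested.

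**Figure D4:**
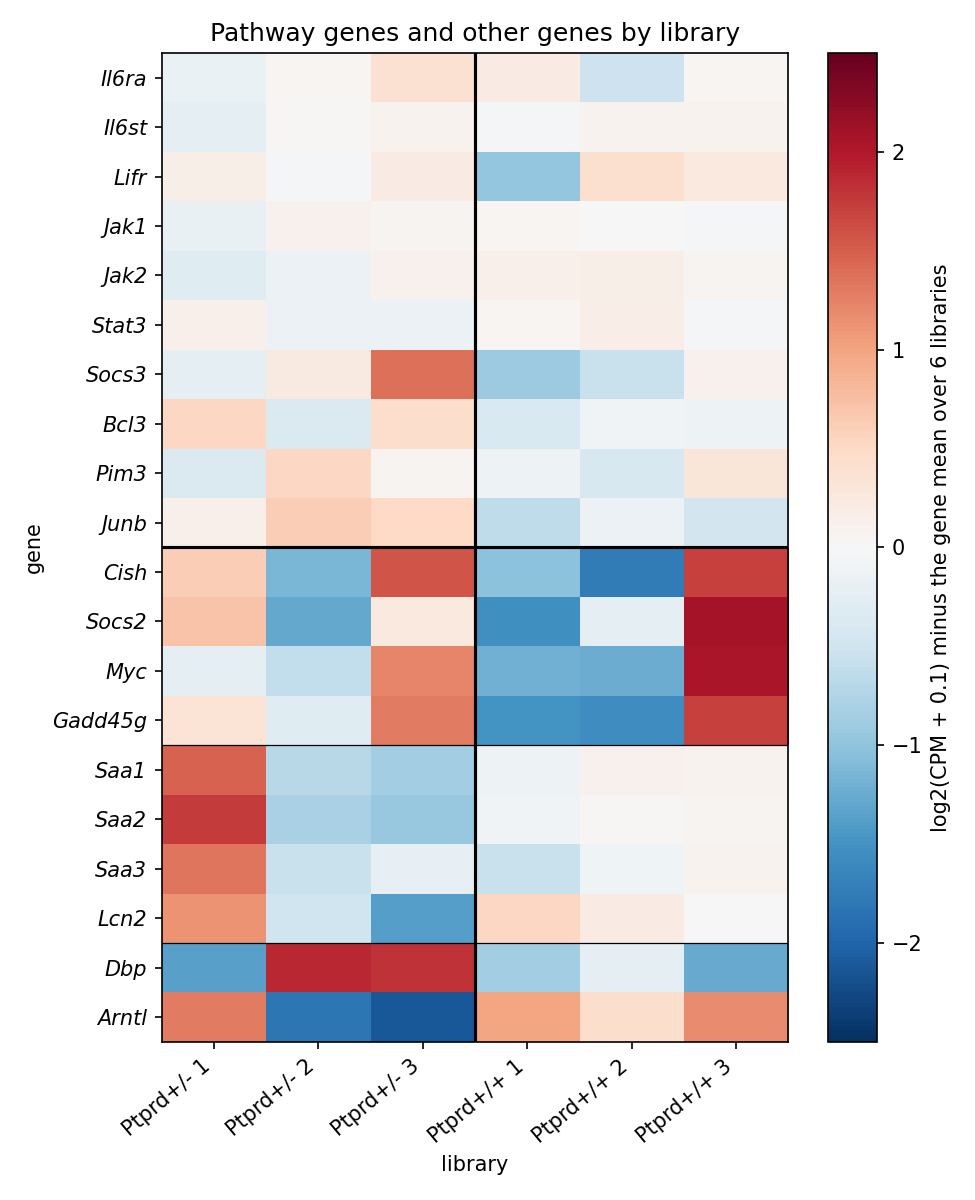
Heat map of log2(CPM + 0.1), each gene centred on its 6-library mean, with Ptprd+/- libraries left of Ptprd+/+ libraries; rows above the thick line are the 10 pathway genes, and below it are STAT-induced genes, acute phase genes and clock genes. Cish, Myc and Gadd45g are high in Ptprd+/- 3 and Ptprd+/+ 3, the serum amyloid genes in Ptprd+/- 1, and Dbp in Ptprd+/- 2 and Ptprd+/- 3.

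Genes of the acute phase response, most of them for secreted liver proteins but also the metallothioneins Mt1 and Mt2 and the membrane reductase Steap4, were divided, with 14 positive and 15 negative log2 fold changes among 29 tested and a median of -0.01. By edgeR and DESeq2 0 passed an adjusted threshold. At an unadjusted edgeR p under 0.05, 3 were lower in Ptprd+/- livers (Hamp2, Orm1 and Orm3) and 1 higher. The higher gene was Saa4, a serum amyloid A gene (log2 fold change 0.31, edgeR unadjusted p 0.0489). Of all genes 3.77% were lower and 3.39% higher at that threshold. Hamp2, a hepcidin gene, had 53.9, 49.9 and 41.5 CPM in Ptprd+/- livers, against 298, 60.1 and 108 CPM in Ptprd+/+ livers (log2 fold change -1.68, SE 0.50, edgeR unadjusted p 0.00977 and adjusted p 0.671). Its groups did not overlap, Ptprd+/+ 1 was the high library, and without it the log2 fold change was -0.80. Hamp, the paralogous main hepcidin gene, had a log2 fold change of 0.15. Any reads shared between such related genes would make the single values uncertain. Orm1 and Orm3, paralogous orosomucoid genes with the same uncertainty, averaged 478 ± 109 and 1.80 ± 0.893 CPM in Ptprd+/- livers. Their means were 650 ± 17.1 and 3.69 ± 1.68 CPM in Ptprd+/+ livers (SD, n = 3). Orm1 did not overlap between genotypes, and Orm3 did. Of the 29 tested genes 2 were lower without overlap and 0 higher, where 6.72% of all genes were lower and 7.15% higher. Orm1 (chr4:63344560-63348163, mm10) and Orm3 lie on chromosome 4, as Ptprd does (chr4:75941238-78211961). The part of that position was not tested.

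Saa1, a serum amyloid A gene, had a different order of libraries from Socs3. It had 38.7, 8.51 and 7.49 CPM in Ptprd+/- livers, against 12.6, 14.9 and 14.8 CPM in Ptprd+/+ livers. Saa1 was thus highest in Ptprd+/- 1 and lowest in Ptprd+/- 3, the library with the most Socs3. The fibrinogen genes Fga, Fgb and Fgg had log2 fold changes of -0.09, -0.01 and -0.10. Each was highest in Ptprd+/- 1, narrowly above Ptprd+/+ 3 (6696 against 6574 CPM for Fga). The acute phase genes summed to 58745, 42515 and 42587 CPM in Ptprd+/- livers, against 42608, 47535 and 50360 CPM in Ptprd+/+ livers. That sum, weighted to abundant genes, was highest in Ptprd+/- 1, while Orm1 was lower there than in any Ptprd+/+ library. Saa1 and the fibrinogen genes were picked with their values in view.

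AP-1 subunits and other immediate early genes gave 15 tested genes, of which 7 had positive and 8 negative log2 fold changes, with 0 past an adjusted threshold. By edgeR 0 of them had an unadjusted p under 0.05, against 7.15% of all genes, and 0 were without overlap, against 13.9% of all genes. Their difference from Junb was not tested. The smallest unadjusted p values belonged to Ier2, Zfp36 and Jund, with log2 fold changes of 0.23, 0.18 and 0.21. Fos, whose product pairs with JunB, picked with its values in view, had 0.713, 0.745 and 0.658 CPM in Ptprd+/- livers, against 0.955, 0.840 and 0.696 CPM in Ptprd+/+ livers. Among 10 genes of NF-kB factors and their regulators, 0 passed an adjusted threshold. Nfkb2, whose product binds BCL3, averaged 9.31 ± 1.39 CPM in Ptprd+/- and 7.53 ± 0.248 CPM in Ptprd+/+ livers without overlap, Rela 41.8 ± 4.47 and 35.5 ± 3.20 CPM, and Nfkbiz 8.37 ± 0.831 and 9.74 ± 1.49 CPM (SD, n = 3).

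Cells other than hepatocytes also use this pathway, so their marker genes are given for the same libraries. The summed level of 7 Kupffer cell markers was 532, 288 and 487 CPM in Ptprd+/- livers, against 637, 395 and 509 CPM in Ptprd+/+ livers. For 7 neutrophil and monocyte markers it was 3.53 to 7.82 CPM in Ptprd+/- and 5.06 to 5.84 CPM in Ptprd+/+ livers. The sums overlapped between genotypes for these lists, and likewise for 6 sinusoidal endothelial markers (250 to 327 against 276 to 315 CPM), 6 stellate cell markers (238 to 265 against 260 to 310 CPM) and 5 cholangiocyte markers (45.2 to 54.8 against 47.6 to 61.9 CPM). The defining neutrophil gene Ly6g had 1 count in 1 library and none in the others. By single markers, Marco, a Kupffer cell scavenger receptor gene, was lower in Ptprd+/- livers at 37.1, 10.9 and 28.1 CPM, against 93.5, 69.9 and 53.8 CPM in Ptprd+/+ livers (edgeR adjusted p 0.649). The sum of 8 hepatocyte markers did not overlap, at 186026, 156996 and 154770 CPM in Ptprd+/- livers, against 137504, 128901 and 153837 CPM in Ptprd+/+ livers, and most of it was Alb. The part of any of these cells in the Junb and Socs3 differences was not tested.

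Genes whose pattern over the 6 libraries was most like that of a pathway gene were found among 11301 others with a mean of at least 1 CPM. Likeness was the root mean square difference of log2 CPM, each gene centred on its own mean. For Stat3 they were Ppp6r2, Ndufb4 and Kdm1a, at differences of 0.045 to 0.048. For Il6ra they were Gatsl3, Daam2 and Tdo2 (0.077 to 0.10). For Junb they were Cyp2u1, Kcnk10 and Inhbe (0.12 to 0.18), and for Socs3 Tcf24, Cyp4a31 and Pogk (0.20 to 0.28). Inhbe, a liver activin subunit gene, had 59.9, 90.9 and 99.7 CPM in Ptprd+/- livers, against 40.6, 58.4 and 59.3 CPM in Ptprd+/+ livers. With 6 libraries and 11301 genes searched, close matches are common, and nothing is read from them.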

How the data were processed

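Polyadenylated RNA from liver was sequenced from strand-specific TruSeq libraries, per the labels. The authors deposited raw counts of reads in Ensembl genes, separately for each library, per the file headers. The submitters' processing notes name the mm10 build, STAR 2.5.3a and HTSeq 0.6.1p1, besides cutadapt 1.10, bcl2fastq 2.17.1.14 and DESeq2 1.16.1. For the annotation release, the strand setting and multi-mapping reads, the choice made is not given in the sources used here. In the count table, 12 normalized columns were not used, because their decimal marks are lost, and neither was the authors' deposited comparison table.

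Low genes were removed with filterByExpr, which left 14606 genes holding 99.955% of counts. Library sizes were adjusted with TMM factors, and counts were tested with edgeR 4.0.16 in R 4.3.3 (quasi-likelihood, two-sided, with only genotype in the model). The p-values of all tested genes were adjusted together by Benjamini-Hochberg, and 0.05 was the threshold. Intervals come from that fit. Nothing in the labels says that the 3 samples per genotype came from separate mice, so p-values measure the spread between these samples, which may be partly or wholly technical. No 2 libraries agreed within counting noise. Exon lengths are the union of exons in GENCODE release M21, in which 9 of the 10 genes have the coordinates of the table.

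DESeq2 1.42.0, limma 3.58.1 (voom), other scalings and filters, the replicate block and leaving out libraries were tried as alternatives, and the fits were first tested on simulated data. The members and lists were chosen with earlier results of these data known. Named genes were the members, Ptprd, cell type markers and the 3 nearest patterns for 4 members. In each other pathway list the 3 genes of smallest unadjusted p were named, except that of the clock genes only Dbp was described. Others are marked where they appear.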

Additional observations from a re-analysis of the deposited data

How the results depend on the processing

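The count of called genes depended on the test and the filter. EdgeR called 0 of 14606 genes (1045 at an unadjusted p under 0.05), DESeq2 called 66, and edgeR with no filter on low counts called 73 of 25904. With 1 library left out the count was 0 to 1, the 1 call arising without Ptprd+/- 2. Of the members, DESeq2 and edgeR without a filter each called 1, Junb, with log2 fold changes of 0.83 and 0.84, and 0 were called in each of the fits that left out 1 library. The members' median log2 fold change was 0.01 to 0.23 with 1 library left out and -0.02 to 0.23 over all settings. Signs turned as follows, and the cause was not tested. Without Ptprd+/- 2 and 3 together, Stat3 had a log2 fold change of 0.073, Il6ra -0.106 and Pim3 -0.313. Over the fits without 1 library, Pim3 ranged from -0.086 (without Ptprd+/- 2) to 0.373, and Jak1 from -0.059 to 0.065 (without Ptprd+/- 1), with 0.008 without Ptprd+/+ 1. Lifr ranged from -0.219 (without Ptprd+/+ 1) to 0.345, and Il6ra from -0.012 (without Ptprd+/+ 2) to 0.314. Adjusted p values over the settings ran from 0.0119 to 0.892 for Junb, 0.192 to 0.955 for Socs3 and 0.797 to 0.987 for Stat3. Libraries with the same replicate number deviated together with correlations over genes of -0.07, 0.12 and 0.15, so the numbers were not taken to pair them. With the replicate block edgeR called 0 genes and 0 members. The log2 fold change of Socs3 was then 0.92 (SE 0.16, edgeR unadjusted p 0.000942 and adjusted p 0.384). That of Junb was 0.83 (SE 0.11, edgeR unadjusted p 0.000278 and adjusted p 0.329). A lone Ptprd+/- library was assumed to vary like the others. Depth limits what can be seen of ligands such as Il6 and Osm, with at most 5 reads in any library.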
